A study of Danio rerio with 12 samples.

Results

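The genes described here are a set of 39 names that mark neurons as a whole, their axons and their presynaptic terminals. They were listed by name, with earlier results of these data known. Of these names 37 were found among the 26255 zebrafish genes measured, 36 of them in the table of the low dose and 37 in that of the high dose. A mean count of at least 10 was reached by 35 members in each comparison, and all counts of members below refer to these 35. The names syn1 and rab3aa were not found under those symbols. Too few reads to test were counted for stx1a (0 to 10 per library), for syt1b (0 to 8, in the high-dose table) and for a second gene ID that shares the name cplx3a (0 to 2).

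Poly(A) RNA of zebrafish larvae was sequenced after exposure to broflanilide, an insecticide of the meta-diamide class that acts on GABA-gated chloride channels of insects. The groups were a low dose of 1 µg/L (n = 4), a high dose of 10 µg/L (n = 3) and a DMSO solvent control (n = 5). The sources used here give no strain, larval age or time of exposure. Nothing in the labels ties a library to its own clutch or pool of larvae, and p-values here therefore measure the spread between these samples only, which may be technical. Both doses were compared with the same 5 control libraries, so their fold changes against control are not independent of each other.

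A neuron releases transmitter when a synaptic vesicle fuses with the presynaptic membrane. Fusion is driven by SNARE proteins (synaptobrevin on the vesicle, syntaxin and SNAP-25 on the plasma membrane), is held by complexins and is triggered by calcium binding to synaptotagmin. Before synapses form, the growing axon depends on proteins that reorganise its cytoskeleton. Among them are GAP-43 at the growth cone membrane and the stathmins, which bind tubulin and promote the turnover of microtubules. Mature axons are filled with neurofilaments, which set their calibre. In fish larvae the Hu family genes elavl3 and elavl4 and the G protein subunit gene gng3 are widely used as markers of postmitotic neurons.

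Total counts per library ran from 10721597 to 16380300 at the low dose, from 11920241 to 13865533 at the high dose and from 11721407 to 15491749 in controls. Low-dose replicate 4 and control replicates 2 and 3 stood apart. Across all genes, log2 levels of control replicates 2 and 3 correlated at 0.840, the lowest value of any pair within a group, against 0.951 for the closest pair. Control replicate 3 was the lowest control for 12 of 22 synaptic vesicle members and the highest control for 5 of 5 axon growth members. Control replicate 2 was the highest control for 15 of the 22 vesicle members. Low-dose replicate 4 lay below every control in 19 of 35 members and above every control in 5. Such counts of members for single libraries, here and below, were not set beside the share over all genes. Whether they concern these genes or the library as a whole was not tested. Markers of other tissues and cell types were detected as lists in every library. The 8 marker lists were glia, neural progenitors, photoreceptors, lens, skeletal muscle, liver, exocrine pancreas and skin. Their lowest summed level in any library was 287 CPM (defined below), for lens in control replicate 1.

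Levels were taken as CPM, the counts scaled to library size with TMM factors common to the 12 libraries. Per kilobase of gene length they spanned a wide range in control larvae. The most abundant member was stmn1b, a stathmin of young neurons, at 811 ± 126 CPM per kb (SD, n = 5), followed by snap25a at 379.9 ± 31.5 CPM per kb. Next came snap25b at 229.6 ± 48.1 and gng3 at 223 ± 48.2 CPM per kb, which did not differ beyond their spread. The synaptotagmin syt1a, the calcium sensor of fast release, stood at 148 ± 39.1 CPM per kb, again within the spread of stmn2a at 144 ± 21.6 and stxbp1a at 129 ± 21.1 CPM per kb. At the other end were the neurofilament genes neflb, nefla and the internexin gene inab at 9.04, 8.06 and 7.72 CPM per kb. The lowest were nsfb at 1.24 ± 0.558 and sv2c at 0.876 ± 0.611 CPM per kb. One copy dominated in some duplicated pairs, on the log2 scale of levels per kb (SD, n = 5 controls). The gene nsfa exceeded nsfb by 5.43 ± 0.67, stxbp1a exceeded stxbp1b by 2.26 ± 0.21, and stmn2a exceeded stmn2b by 1.22 ± 0.18. The same ratio was 1.22 ± 0.30 for syn2a to syn2b and 0.74 ± 0.20 for snap25a to snap25b. Other pairs were closer to equal, at 0.35 ± 0.19 for sypa to sypb, -0.14 ± 0.19 for nefla to neflb and -0.28 ± 0.24 for nefma to nefmb. Reads shared between such copies would leave both levels uncertain.

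The median coefficient of variation of the members over the 5 controls was 21.8%, against 32.7% over all 18786 genes above the count minimum. Among the role groups it ran from 15.5% for axon growth genes to 40.4% for calcium sensors and clamps. The latter group holds low-level genes such as syt2a and cplx3a, and control replicate 3 was the lowest control in 6 of its 6 genes. The lowest members, nsfb and sv2c, are in the SNARE and vesicle membrane groups, whose medians were 19.4% and 19.9%. The part of low level or of control replicate 3 in this spread was not tested.

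**Figure D1:**
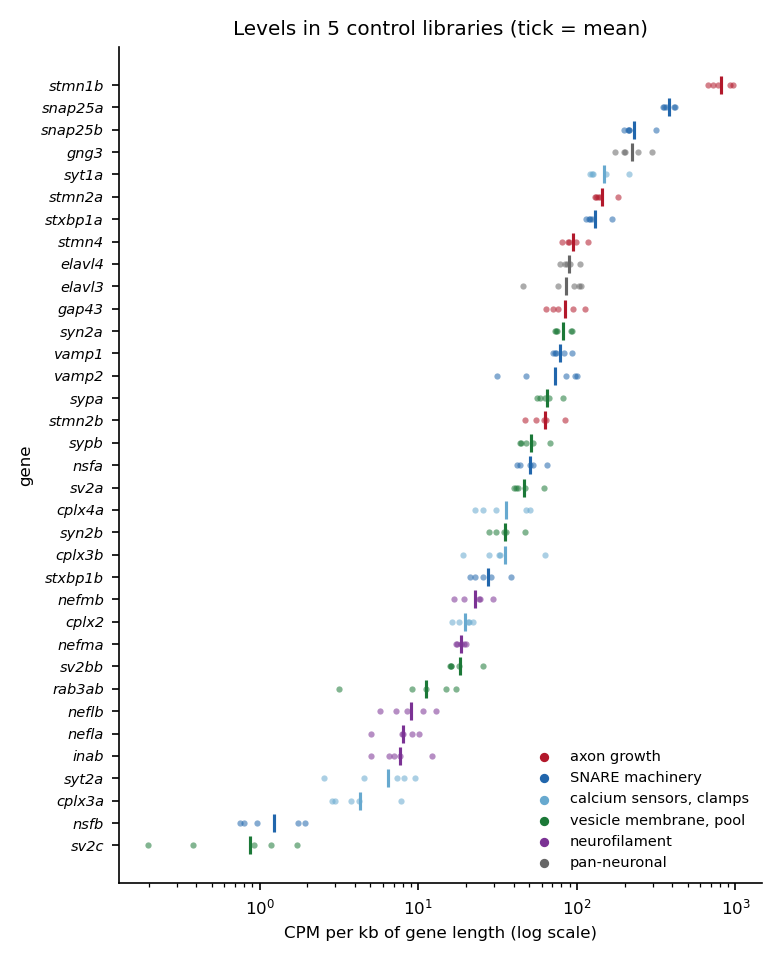
Level of each member in the 5 control libraries, in CPM per kb of gene length on a log axis. Points are libraries, ticks are means, and members are ordered by mean level and coloured by role. The stathmin stmn1b averaged 811 CPM per kb and sv2c 0.876 CPM per kb.

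Several members are neighbours on the genome (GRCz11 coordinates, from the files). The neurofilament genes nefla (chromosome 21, 19008168 to 19011040, plus strand) and nefma (19013850 to 19018455, minus strand) lie 2809 bases apart, and nefmb and neflb lie 6962 bases apart on chromosome 8. Between stmn4 and snap25a on chromosome 20 are 44254 bases and 1 other gene. A strand setting for the counting is not given in the sources used. Members whose annotated span overlaps another gene on the opposite strand may therefore share reads with it. Among them were stxbp1b with whrnb, syn2b with 3 timp4 copies, and stmn4 with mcm3, emilin1a and il17a/f3. The same holds for nefma with rpl17, and for elavl4 with an antisense RNA, CR931780.1. Both stxbp1a and gng3 overlap a ribosomal RNA entry on the opposite strand. On the same strand, stmn1b overlaps paqr7b, nefla overlaps rpl17 and cplx4a overlaps BX248399.1. For these a strand setting would not separate the reads.

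At the low dose most neuronal members were lower than in controls, with the lowest median among axon growth genes, and 0 members passed the threshold. The threshold was a Benjamini-Hochberg adjusted p under 0.05 by edgeR's quasi-likelihood test over all genes, which called 0.00% of 18811 genes (smallest adjusted p = 0.924). Of 35 members 25 had a log2 fold change below 0 and 10 above it, against 49.8% of all genes below 0. Their median log2 fold change was -0.15 (range -0.60 to 0.87), beside a median of 0.0013 over all genes. An unadjusted p under 0.05 was reached by 1 member (2.86%), against 3.89% of all genes, and 0 members had groups that did not overlap, against 0.712% of genes higher and 0.835% lower. The 1 was stmn2b; the number was 0 without low-dose replicate 1 or without low-dose replicate 4, 2 without low-dose replicate 3 and 6 without low-dose replicate 2. In bulk RNA of larvae, fewer neurons and less RNA of these genes per neuron cannot be told apart. The count of lower members was 20 without control replicate 2, where 49.7% of all genes were lower. It was also 20 with all 3 libraries that stood apart left out, with a median of -0.0088. By limma with array quality weights the count of lower members was 20, where 46.9% of all genes were lower, and by DESeq2 it was 25.

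**Figure D2:**
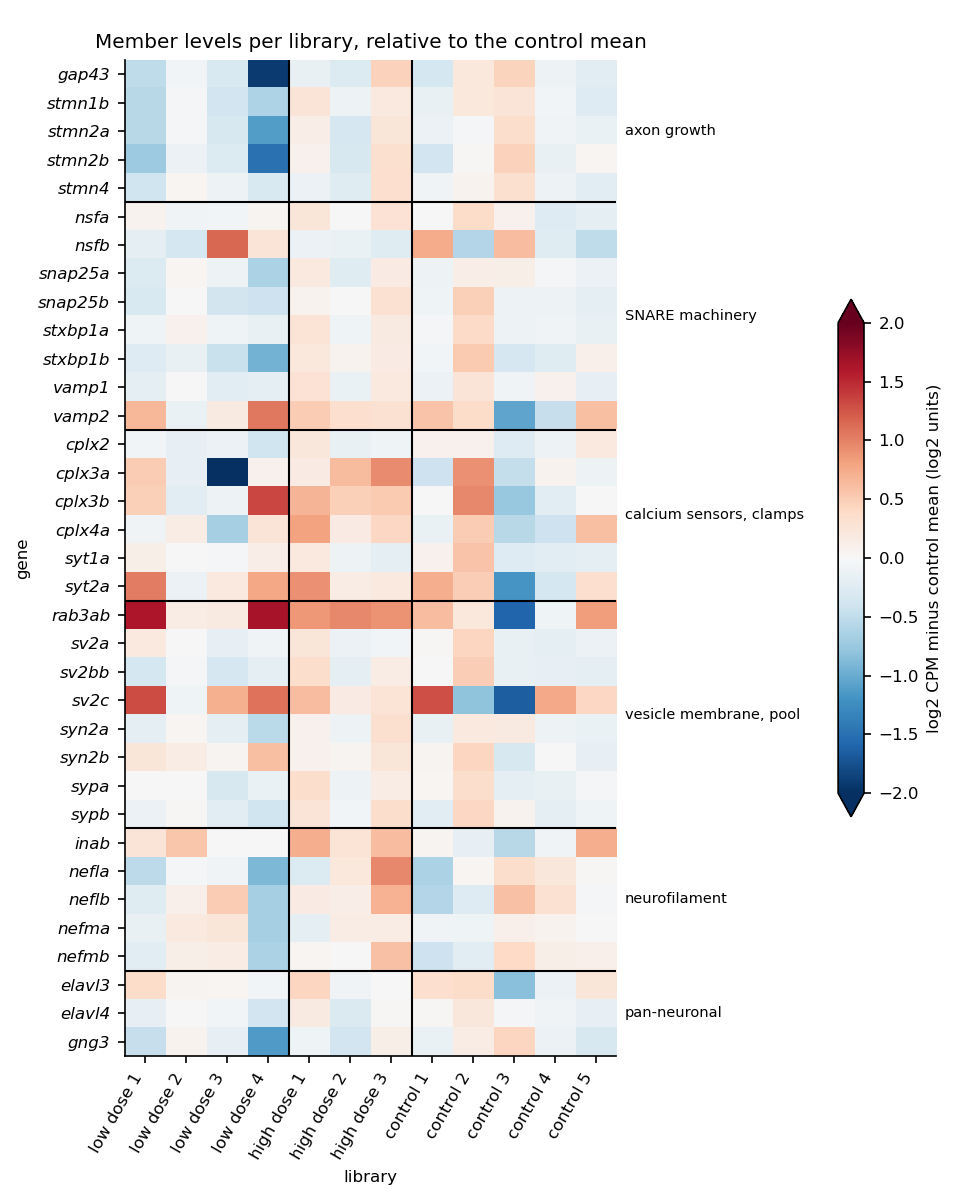
Log2 CPM of each of the 35 members in each library minus the mean of the 5 controls, with members in rows by role and libraries in columns (low dose, high dose, control). In low-dose replicate 4 gap43 stands at -1.92 and rab3ab at 1.65.

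Axon growth genes were lower in 5 of 5 members at the low dose, and their median log2 fold change was -0.47 (range -0.60 to -0.20). The member with the smallest p was stmn2b, a neuron-specific stathmin, whose mammalian form SCG10 is found in growth cones (ENSDARG00000070537, chromosome 19, 31771270 to 31790551, plus strand). It had 67.8, 103, 92.3 and 39.8 CPM at the low dose, 119, 89.9 and 139 CPM at the high dose and 85.8, 113, 154, 101 and 116 CPM in controls. Low-dose replicates 1 and 4 lay below every control, and replicates 2 and 3 lay within the control range. The log2 fold change at the low dose was -0.60 (SE 0.27, unadjusted p = 0.0425 and adjusted p = 0.924, edgeR), and -0.39 without low-dose replicate 4.

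Its paralog stmn2a (ENSDARG00000033234, chromosome 16, 16165029 to 16182319, minus strand) had 205, 296, 239.8 and 138 CPM at the low dose, 328, 239 and 357 CPM at the high dose and 277, 296, 383, 287 and 273 CPM in controls. In 3 of 4 low-dose libraries, all but replicate 2, and in high-dose replicate 2 it lay below every control. The log2 fold change was -0.47 (SE 0.22, 95% interval -0.95 to 0.0063) at the low dose, or -0.30 without low-dose replicate 4. In high-dose larvae it was 0.015 (SE 0.20, 95% interval -0.41 to 0.44). The ratio of stmn2a to stmn2b per kb did not separate the groups: its log2 value was 1.37 ± 0.17 at the low dose (SD, n = 4), 1.20 ± 0.054 at the high dose (SD, n = 3) and 1.22 ± 0.18 in controls (SD, n = 5).

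The growth cone gene gap43 (ENSDARG00000099744, chromosome 15, 47161917 to 47176151, plus strand) had 61.0, 83.0, 69.8 and 22.8 CPM at the low dose, 78.0, 71.5 and 119 CPM at the high dose and 68.0, 100.3, 118, 80.5 and 75.0 CPM in controls. Low-dose replicate 4 was lower than all other libraries, low-dose replicate 1 was also below every control, and the other low-dose libraries lay within the control range. The log2 fold change at the low dose was -0.59 (SE 0.31). It became -0.32 when low-dose replicate 4 was left out, and -0.067 when control replicates 2 and 3 were left out as well. At the high dose it was 0.013 (SE 0.23).

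The remaining stathmins were also lower in low-dose replicates 1 and 4 than in any control. The level of stmn1b was 925, 1336, 1042 and 881 CPM at the low dose, 1614, 1269 and 1558 CPM at the high dose and 1219, 1561, 1623, 1301 and 1139 CPM in controls, with low-dose replicates 1, 3 and 4 below every control and a log2 fold change of -0.40 (SE 0.20). For stmn4, which is expressed in neurons, the values were 175, 237, 216 and 187 CPM at the low dose, 214, 196 and 291 CPM at the high dose and 220.2, 242, 288, 215 and 199 CPM in controls. Its log2 fold change of -0.20 (SE 0.17) was the smallest in size of the 5 axon growth genes, and low-dose replicate 1 was the lowest library. Counted over the 5 genes, low-dose replicates 1 and 4 lay below every control in 5 of 5, replicate 3 in 2 and replicate 2 in 0. High-dose replicate 2 was also below every control in 2 of the 5 (stmn2a and stmn4), and high-dose replicate 3 was above every control in 2 (stmn4 and gap43). The same counts over all genes were not made.

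**Figure D3:**
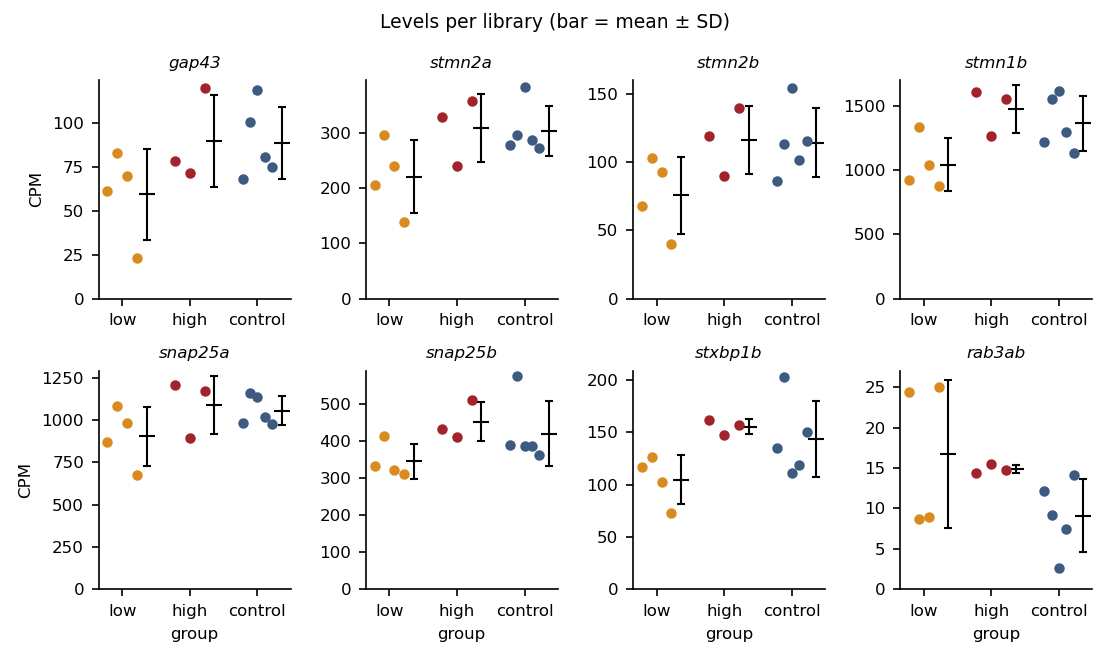
CPM of 4 axon growth genes (gap43, stmn2a, stmn2b, stmn1b) and 4 synaptic vesicle genes (snap25a, snap25b, stxbp1b, rab3ab) in every library. Points are libraries and bars are group means ± SD, with low dose, high dose and control from left to right. For gap43 the low-dose libraries run from 22.8 to 83.0 CPM and the controls from 68.0 to 118 CPM.

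Members of the SNARE machinery were lower in 6 of 8 at the low dose (median -0.11, range -0.46 to 0.37) and 0 passed. The lowest was stxbp1b, a Munc18 protein that binds syntaxin and assists vesicle priming (ENSDARG00000056036, chromosome 5, 28972935 to 29002322, plus strand). Its level was 117, 127, 102 and 72.5 CPM at the low dose, 162, 147 and 157 CPM at the high dose and 135, 203, 111, 119 and 150.5 CPM in controls. Low-dose replicates 3 and 4 lay below every control, and all 3 high-dose libraries lay within the control range. The fold change on the log2 scale was -0.46 (SE 0.22) at the low dose and 0.11 (SE 0.20) at the high dose; without control replicate 2 the values were -0.31 and 0.26. Its paralog stxbp1a, on average several times more abundant per kb, was at -0.074 (SE 0.17) and 0.11 (SE 0.19).

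Both snap25 genes encode the plasma membrane SNARE that clostridial toxins cleave. The level of snap25b was 333, 413, 319.9 and 312 CPM at the low dose, 432, 411 and 510.3 CPM at the high dose and 388, 576, 387, 386 and 361 CPM in controls. Control replicate 2 was far above the other controls, and low-dose replicates 1, 3 and 4 lay below every control. The log2 fold change at the low dose was -0.29 (SE 0.19) and -0.15 without control replicate 2. For snap25a the levels were 872, 1085, 986 and 677 CPM at the low dose, 1206, 892 and 1176 CPM at the high dose and 986, 1161, 1139, 1021 and 975 CPM in controls. Low-dose replicates 1 and 4 and high-dose replicate 2 lay below every control, and high-dose replicates 1 and 3 lay above every control. Its log2 fold change was -0.23 (SE 0.19) at the low dose, or -0.11 without low-dose replicate 4, and 0.039 (SE 0.19) at the high dose.

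Among the vesicular SNAREs, vamp1 was at -0.15 (SE 0.15) and vamp2 at 0.37 (SE 0.34) at the low dose, the highest value of the group. For vamp2, control replicate 3 had 28.3 CPM and the other controls 42.8 to 89.8 CPM, and low-dose replicates 1 and 4 lay above every control at 94.3 and 123 CPM. The ATPase genes nsfa and nsfb, which take spent SNARE complexes apart, were at -0.024 (SE 0.16) and 0.22 (SE 0.43).

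Calcium sensors and fusion clamps divided evenly at the low dose, with 3 of 6 lower (median -0.056), and at the high dose 4 of 6 were higher (median 0.36). The complexin gene cplx4a, whose mammalian form belongs to the ribbon synapses of the retina, had 81.1, 94.2, 53.6 and 101 CPM at the low dose, 148, 95.5 and 114 CPM at the high dose and 77.5, 121, 57.7, 64.0 and 128 CPM in controls. High-dose replicate 1 was above every control and low-dose replicate 3 below every control. The log2 fold change was -0.12 (SE 0.27) at the low dose, or 0.046 without control replicate 5, and 0.40 (SE 0.28) at the high dose, or 0.22 without high-dose replicate 1.

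A second retinal complexin, cplx3b, had 27.2, 16.9, 18.2 and 49.1 CPM at the low dose, 31.2, 27.3 and 28.0 CPM at the high dose and 19.5, 37.9, 11.5, 16.9 and 19.6 CPM in controls. The 3 high-dose libraries lay within the control range, and low-dose replicate 4 was above every control. Its log2 fold change was 0.39 (SE 0.37) in low-dose larvae, or -0.028 when low-dose replicate 4 was left out. In high-dose larvae it was 0.44 (SE 0.31), or 0.76 when control replicate 2 was left out. Photoreceptor markers, which are also retinal, had lower values at the low dose in 14 of 15 genes and higher values at the high dose in 12 of 15; their part in the complexin values was not tested. The most abundant sensor, syt1a, was at 0.012 (SE 0.20) at the low dose and -0.062 (SE 0.23) at the high dose. The broadly expressed complexin gene cplx2 was at -0.19 (SE 0.15) and -0.012 (SE 0.17).

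Genes for vesicle membrane proteins and vesicle pools were lower in 5 of 8 members at the low dose (median -0.079) and higher in 8 of 8 at the high dose (median 0.10, range 0.0021 to 0.69), or in 6 of 8 with DESeq2 size factors and 7 of 8 by limma. The small GTPase gene rab3ab, whose product rides on synaptic vesicles (ENSDARG00000043835, chromosome 11, 6819050 to 6850593, plus strand), had 24.4, 8.73, 8.95 and 25.0 CPM at the low dose, 14.4, 15.5 and 14.8 CPM at the high dose and 12.2, 9.17, 2.58, 7.43 and 14.2 CPM in controls. All 3 high-dose libraries lay above every control, the nearest of them by under 1 CPM, and so did low-dose replicates 1 and 4. This was the 1 member of 35 with non-overlapping groups at the high dose (2.86%), where 1.39% of all genes were higher without overlap and 1.08% lower. On the log2 scale the fold change was 0.87 (SE 0.46) at the low dose and 0.69 (SE 0.40) at the high dose. These became 0.31 and 0.39 with the 3 libraries that stood apart left out, and 0.46 at the high dose with control replicate 3 alone left out.

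The transporter-like vesicle glycoprotein gene sv2bb had 91.1, 114, 92.5 and 102 CPM at the low dose, 148, 103 and 128 CPM at the high dose and 117, 164, 105, 104 and 103 CPM in controls. Control replicate 2 again stood above the rest, and low-dose replicates 1, 3 and 4 lay below every control. Its fold change was -0.25 on the log2 scale (SE 0.18) at the low dose, or -0.11 without control replicate 2, and 0.09 (SE 0.20) at the high dose, where it was -0.037 without high-dose replicate 1 and 0.24 without control replicate 2. Its relative sv2a was at -0.033 (SE 0.18) and 0.0021 (SE 0.20). The synaptophysin genes sypa and sypb had log2 fold changes of -0.13 and -0.19 in low-dose larvae (SE 0.18 or less), and of 0.13 and 0.17 in high-dose larvae (SE 0.19 or less). The synapsin genes, whose products tether the reserve pool of vesicles, parted at the low dose: syn2a was at -0.22 (SE 0.17) and syn2b at 0.25 (SE 0.18). Their log2 ratio per kb was 0.74 ± 0.47 at the low dose (SD, n = 4), 1.19 ± 0.12 at the high dose (SD, n = 3) and 1.22 ± 0.30 in controls (SD, n = 5), and it was lowest in low-dose replicate 4 at 0.07.

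Neurofilament genes were lower in 4 of 5 members at the low dose by edgeR (median -0.076), but in 1 of 5 by limma with array quality weights (median 0.024). At the high dose they were higher in 5 of 5 (median 0.29), but not alike in each library. High-dose replicate 3 lay above every control in 4 of the 5. High-dose replicate 1 lay above every control for inab and below every control for nefma. High-dose replicate 2 lay above every control for nefma only. The light chain gene nefla had 15.3, 21.3, 21.0 and 11.8 CPM at the low dose, 18.2, 25.3 and 42.9 CPM at the high dose and 14.2, 22.5, 28.1, 25.7 and 22.2 CPM in controls. High-dose replicate 3 stood above every control and low-dose replicate 4 below every control, with the other libraries of both doses inside the control range. Its log2 fold change was -0.39 (SE 0.25) at the low dose and 0.35 (SE 0.29) at the high dose, where the values became -0.24 without low-dose replicate 4 and -0.062 without high-dose replicate 3. The fish internexin gene inab had 17.3, 21.4, 14.4 and 14.5 CPM at the low dose, 24.3, 17.6 and 22.4 CPM at the high dose and 15.2, 12.9, 9.93, 13.9 and 24.2 CPM in controls. All but 1 high-dose library lay within the control range, and high-dose replicate 1 exceeded the highest control by under 1 CPM. The log2 fold change of inab was 0.14 (SE 0.26) at the low dose, with a range of 0.0086 to 0.38 when single libraries were left out, and 0.48 (SE 0.27) at the high dose.

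Of the 3 pan-neuronal markers 2 were lower at each dose. The level of gng3 was 200.2, 290.2, 246 and 126 CPM at the low dose, 259, 211 and 301 CPM at the high dose and 251, 307, 374, 253 and 219.8 CPM in controls. Low-dose replicates 1 and 4 and high-dose replicate 2 lay below every control. Its log2 fold change was -0.39 (SE 0.25) at the low dose, or -0.20 without low-dose replicate 4, and -0.14 (SE 0.21) at the high dose. The RNA-binding protein gene elavl4 had 608, 689, 656 and 525 CPM at the low dose, 772, 557 and 696 CPM at the high dose and 696, 804, 672, 653 and 608 CPM in controls. Low-dose replicate 4 and high-dose replicate 2 were below every control, and the log2 fold changes were -0.16 (SE 0.17) at the low dose, or -0.082 without low-dose replicate 4, and -0.032 (SE 0.19) at the high dose. Its relative elavl3, a marker of neurons from early stages on, was at 0.041 (SE 0.24) and 0.073 (SE 0.27), and its lowest library was control replicate 3 at 213 CPM, against 350.3 to 489 CPM in the other controls.

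At the high dose the members as a whole were slightly higher than in controls. Of 35 members 29 had a log2 fold change above 0 and 6 below it, where 50.5% of all genes were below 0, and the median was 0.10 (range -0.28 to 0.69) beside -0.0032 over all genes. By edgeR 0 members passed the threshold, as did 0.00% of 18618 genes (smallest adjusted p = 0.234), and 0 members had an unadjusted p under 0.05, against 2.00% of all genes (1.07% higher and 0.929% lower). The count of members with higher values depended on scaling and on single libraries. With DESeq2 size factors it was 24, with 53.5% of all genes lower. The count of lower members was 13 when high-dose replicate 3 was left out, 11 for high-dose replicate 1, 10 for control replicate 4, 4 for high-dose replicate 2 and 3 for control replicate 2. The axon growth genes lay close to 0 (median 0.015, range -0.002 to 0.10), and their direction there cannot be given: 1 of 5 was lower with TMM scaling and 4 of 5 with DESeq2 size factors. Single members near 0 also depended on 1 library: with each left out in turn, high-dose values ran from -0.036 to 0.17 for snap25a, from -0.14 to 0.09 for elavl4 and from -0.27 to -0.0093 for gng3.

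**Figure D4:**
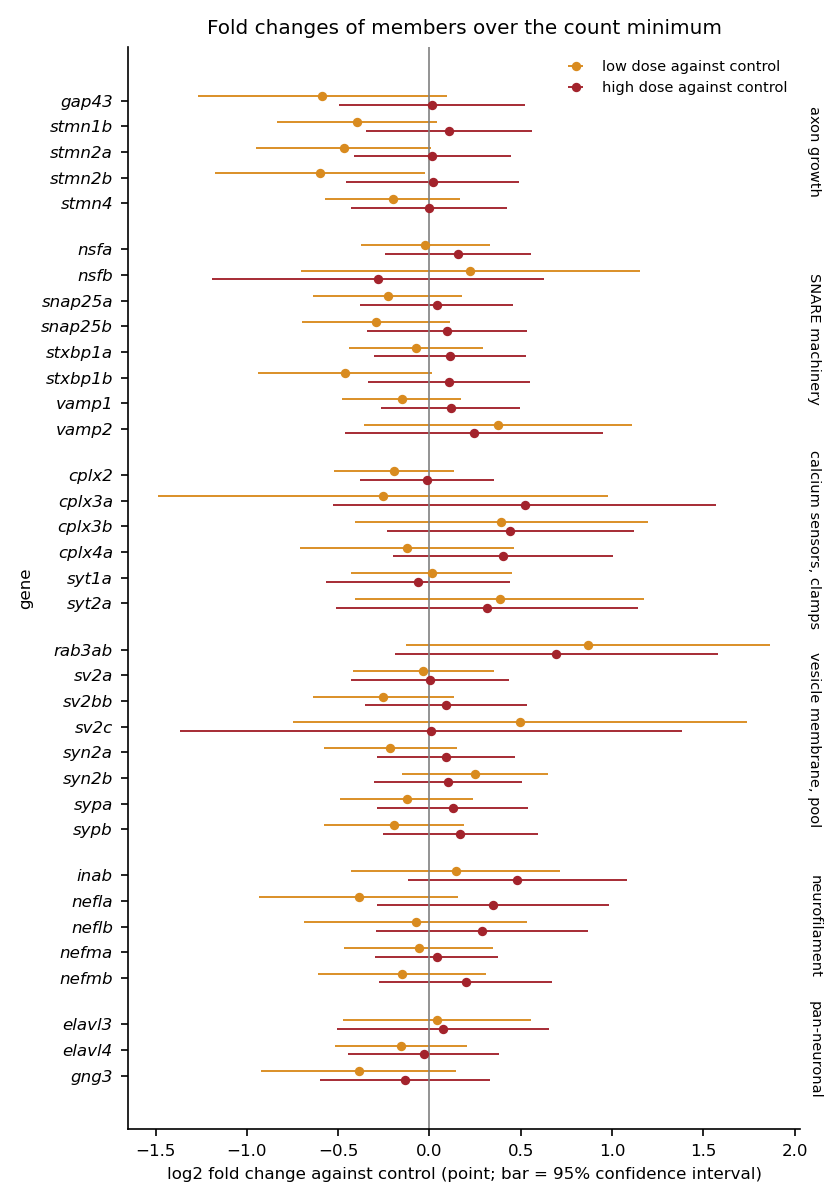
Log2 fold change of each member against control with its 95% interval, for the low dose and the high dose, with members grouped by role. At the low dose the 5 axon growth genes run from -0.60 to -0.20, and at the high dose from -0.002 to 0.10.

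For the difference between the doses, 1 model was fitted to the 12 libraries together. High-dose values exceeded low-dose values in 28 of 35 members (median 0.25), where 51.1% of all genes had a value below 0 and the median of all genes was -0.011. An unadjusted p under 0.05 was reached by 4 members (11.4%), all higher at the high dose, against 4.48% of 18786 genes (2.43% higher and 2.05% lower). By edgeR 0 members and 0.00% of all genes passed the threshold (smallest adjusted p = 0.953). The 4 were nefla at 0.74 (SE 0.31), stmn2b at 0.62 (SE 0.29), stxbp1b at 0.57 (SE 0.22) and stmn1b at 0.50 (SE 0.21). Without high-dose replicate 3 the value of nefla was 0.32, and without low-dose replicate 4 that of stmn2b was 0.40. For stxbp1b all 3 high-dose libraries (147 to 162 CPM) lay above all 4 low-dose libraries (72.5 to 127 CPM), which 3.84% of all genes did, while 2.87% had the opposite order. The number of members at an unadjusted p under 0.05 was 0 without low-dose replicate 4 or without high-dose replicate 3, 1 without low-dose replicate 1 or high-dose replicate 1, and 7 without low-dose replicate 2 or high-dose replicate 2. Each of the 5 axon growth genes was higher at the high dose than at the low dose, in the full fit and with any 1 library left out.

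Axon growth genes were set against synaptic vesicle genes, with no test of the difference since the members had been chosen by name with earlier results known. The 22 tested vesicle genes (SNARE, calcium sensor and vesicle membrane groups together) had a median of -0.10 (log2 fold change) at the low dose, where 14 were lower, and of 0.11 at the high dose, where 19 were higher. The axon growth median minus the vesicle median was -0.37 for low-dose larvae and -0.093 for high-dose larvae. At the low dose this difference kept its sign with any 1 library left out (range -0.53 to -0.24), and was -0.15 with the 3 libraries that stood apart left out. It was -0.24 without control replicate 3 and -0.24 without low-dose replicate 4. The axon growth median itself was -0.15 without the 3 libraries, still lower in 5 of 5 genes, and the vesicle median was then close to 0. The vesicle median at the low dose was 0.048 without control replicate 2, and at the high dose 0.23. At the high dose the difference ran from -0.22 to 0.067 with 1 library left out, and was above 0 without control replicate 3.

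Set out by library, the contrast rested on part of the low-dose group. A score per library was taken as the mean of log2 CPM over the genes of a list, minus the mean of the controls. The axon growth score was -0.55, -0.038, -0.28 and -1.09 in low-dose replicates 1 to 4, 0.041, -0.25 and 0.31 in the high-dose libraries and -0.21, 0.10, 0.37, -0.10 and -0.15 in controls. Low-dose replicates 1, 3 and 4 and high-dose replicate 2 were below every control, with low-dose replicate 3 and high-dose replicate 2 close to each other. The vesicle score was 0.19, -0.039, -0.14 and 0.15 in low-dose libraries, 0.34, 0.074 and 0.25 in high-dose libraries and 0.13, 0.33, -0.37, -0.12 and 0.034 in controls. Only high-dose replicate 1 lay outside the control range of that score. The low-dose mean of the vesicle score was 0.040, above 0, whereas the median log2 fold change of these genes was -0.10. The direction of the vesicle list at the low dose thus depended on the measure. The axon growth score minus the vesicle score was -0.74, 0.0011, -0.14 and -1.24 in low-dose libraries, -0.30, -0.32 and 0.062 in high-dose libraries and -0.35, -0.23, 0.74, 0.026 and -0.19 in controls. Low-dose replicates 1 and 4 lay below every control and control replicate 3 far above the rest, while the other libraries of both doses lay within the control range.

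**Figure D5:**
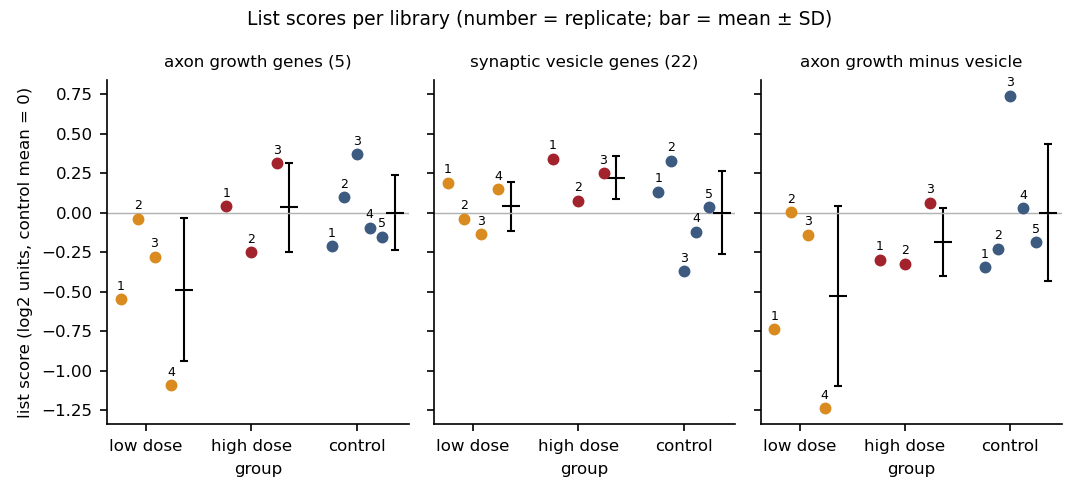
Score per library (mean log2 CPM of a list minus the control mean) for axon growth genes, synaptic vesicle genes and their difference, with low dose, high dose and control from left to right. Points are libraries and bars are group means ± SD. The difference reaches -1.24 in low-dose replicate 4 and 0.74 in control replicate 3.

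The vesicle list was not uniform in low-dose replicate 4. There 8 of 22 vesicle genes lay below every control (snap25a, snap25b, stxbp1b, vamp1, cplx2, sypb, syn2a and sv2bb) and 5 lay above every control (vamp2, syt2a, cplx3b, syn2b and rab3ab). Of the same 22 genes, 5 lay below every control and 4 above in low-dose replicate 1. In low-dose replicate 3, 8 lay below and 1 above. In low-dose replicate 2, 0 of 35 members lay below every control and 1 above. High-dose replicates 1 and 3 lay above every control in 9 and 10 members, and high-dose replicate 2 in 2, with 5 below. For these counts too, the share over all genes was not taken.

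Other genes of axons and terminals gave the setting for these values. Of 107 further gene IDs tested (active zone, vesicle recycling, axon outgrowth and general neuronal lists), 56 were higher and 51 lower at the low dose (median 0.032), 70 were higher and 37 lower at the high dose (median 0.059), and 0 passed the threshold at either dose. Active zone scaffolds such as bassoon and piccolo genes had values above 0 at the low dose in 13 of 19 (median 0.17). Further axon outgrowth genes were lower in 21 of 35 (median -0.09), and vesicle recycling genes were higher in 15 of 27 (median 0.11).

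Among these, the smallest p at the low dose belonged to dpysl4, a collapsin response mediator of axon guidance, to the gamma-synuclein gene sncga and to the tubulin gene tuba2. Levels of dpysl4 were 12.9, 12.4, 11.0 and 5.10 CPM at the low dose, 17.3, 11.7 and 20.9 CPM at the high dose and 14.7, 18.7, 16.5, 16.2 and 22.7 CPM in controls, so that all 4 low-dose libraries lay below every control (log2 fold change -0.79, SE 0.28). Levels of tuba2 were 325, 431, 404 and 229 CPM at the low dose, 551, 362 and 522 CPM at the high dose and 450.5, 484, 589.6, 474 and 442 CPM in controls, again with 4 of 4 low-dose libraries below every control (log2 fold change -0.50, SE 0.21). The value of sncga, 2.02 (SE 0.78), came from 1 library with 29.9 CPM and was 0.13 without it. The genes dpysl4 and tuba2 were the 2 of the 107 whose low-dose libraries were lower with no overlap, against 0.835% of all genes, and high-dose replicate 2 also lay below every control for both. In all, 5 of the 107 were lower at an unadjusted p under 0.05 (dpysl4, tuba2, syngr3b, tubb5 and 1 of the 2 gene IDs named tuba1c) and 1 was higher (sncga), where 1.80% of all genes were lower and 2.09% higher. Without low-dose replicate 4, dpysl4 was at -0.56 and tuba2 at -0.34.

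At the high dose the 3 with the smallest p were syt11b, tmsb and nova1. The atypical synaptotagmin gene syt11b had 28.2, 23.0, 20.9 and 34.1 CPM at the low dose, 26.6, 27.7 and 31.2 CPM at the high dose and 23.9, 18.7, 12.6, 21.8 and 18.8 CPM in controls. All 3 high-dose libraries lay above every control, as did low-dose replicates 1 and 4, and the log2 fold changes were 0.46 (SE 0.22) at the low dose and 0.56 (SE 0.22) at the high dose. It was the 1 gene of the 107 (0.935%) at an unadjusted p under 0.05, fewer than the 2.00% of all genes, and the 1 without overlap between groups, where 1.39% of all genes were higher without overlap. The thymosin gene tmsb, whose product binds actin monomers, was at -0.56 (SE 0.40) and -0.49 (SE 0.23). In low-dose larvae it became -0.25 when replicate 4 was left out and -1.02 when replicate 2 was. For the neuronal splicing factor gene nova1 the values were 0.20 (SE 0.15) and 0.34 (SE 0.17), with 0.18 at the high dose without high-dose replicate 3. Between the doses 11 of the 107 reached an unadjusted p under 0.05, 10 of them higher at the high dose, against 2.43% of all genes higher and 2.05% lower. These included tuba1a (0.72, SE 0.24), tubb5 (0.91, SE 0.34) and uchl1 (0.66, SE 0.24), chosen after their values were seen.

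Marker levels of other cell types also differed between the low-dose libraries. A list of genes of neural progenitors, the precursors of new neurons, also held pcna, mki67 and ccnd1, which mark dividing cells of any tissue. Its genes were lower in 18 of 20 at the low dose (median -0.39), and their summed level was 393 to 614 CPM at the low dose, 584 to 754 CPM at the high dose and 587 to 828 CPM in controls. Their score was -0.27, -0.12, -0.29 and -0.79 in low-dose replicates 1 to 4, lowest in the library that was also lowest for axon growth genes. Glial and myelin genes were lower in 10 of 15 (median -0.23), and their sum was 2785 to 3284 CPM at the low dose, 2999 to 3727 CPM at the high dose and 2897 to 3518 CPM in controls. Photoreceptor genes had sums of 2258 to 4304 CPM at the low dose, 4011 to 6587 CPM at the high dose and 3594 to 6602 CPM in controls.

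Lens genes were higher in 13 of 13 at the low dose, with a sum of 6195 CPM in low-dose replicate 4, 656 to 1427 CPM in the other low-dose libraries, 507 to 754 CPM at the high dose and 287 to 2145 CPM in controls. Skin genes scored -1.65 in low-dose replicate 4 and -1.53 in control replicate 2. Skeletal muscle genes scored -1.64 in control replicate 2, and their sum was 30225 to 53873 CPM at the low dose, 34469 to 48121 CPM at the high dose and 15618 to 68178 CPM in controls. Liver and exocrine pancreas scores ran from -0.23 to 0.56 and 0.53 to 1.90 at the low dose, from -0.25 to 1.46 and -0.32 to 0.86 at the high dose and from -1.27 to 1.06 and -1.10 to 1.16 in controls. The part of these tissues in the values of the neuronal genes was not tested.

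At the low dose the authors' deposited table gives a p-value under 0.05 for 3 of 36 members, against 4.101% of all genes with a p-value there. The authors' deposited table gives log2 fold changes of -0.59 for stmn2b, -0.46 for stmn2a and -0.38 for stmn1b, all axon growth genes, each with an adjusted p of 0.983. For the high dose, 0 of 38 gene IDs of the members had a p-value under 0.05 in the authors' deposited table, against 2.25% of all genes.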

How the data were processed

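Deposited values came in 1 table per dose. Per the file headers, each holds raw read counts per Ensembl gene for its dose and the 5 controls, which are the same in both; these counts were the starting point. A normalized signal, also deposited, is each count over a size factor of its library. The authors' log2 fold change and p-value appear only in sentences that name the authors' table. The FPKM that the authors deposited in 17 columns, per the file headers, were not used. Gene length and coordinates (GRCz11) are those deposited by the authors. Tools named in the submitters' processing notes, without versions or roles, are fastp, HISAT2, featureCounts and DESeq2, with the build GRCz11; per the labels' protocols the library kit was directional.

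Quasi-likelihood fits in edgeR 4.0.16 under R 4.3.3, scaled by TMM, covered all genes that reached a mean count of 10, with Benjamini-Hochberg adjustment and a threshold of 0.05; the low dose and the high dose were each fitted with the controls, and their difference on all 12 libraries (genes in both tables). Fold changes used a prior count of 0.125. Levels are CPM on 1 TMM scale over 12 libraries, and log2 CPM used a prior count of 1. Each standard error was taken as log2 fold change over the root of the F statistic. The fit was tested on simulated data with fold changes larger than those of any member. How well it recovers changes as small as those of the members was not tested. Depth ran from 10721597 to 16380300 counts per library.

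Members and gene lists were chosen with earlier results of these data known. Members with an unadjusted p under 0.05, the 2 with the smallest p in each of 6 role groups, and gap43, snap25a, snap25b, stmn2a and stmn2b are given by library; of other pathway genes, the 3 with the smallest p per dose. All 5 axon growth genes were then given by library. Alternatives were DESeq2 1.42.0, its size factors, limma 3.58.1 with array quality weights, no filter on counts, a minimum mean count of 50, a prior count of 5, a replicate block, each library left out, and 3 libraries left out together.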

Additional observations from a re-analysis of the deposited data

Results flagged for a closer look

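Among 58 groups of low-dose or control libraries looked at for a library far from the others of its group, 5 held one. By chance about 1 in 20 (2.9) would. High-dose groups (n = 3) were too small for this rule and were not looked at. Control replicate 2 stood above the other controls for snap25b, with 576 CPM against 388 CPM in the nearest, and for sv2bb, with 164 CPM against 117 CPM. Control replicate 3 stood above the others for stmn2a, with 383 CPM against 296 CPM, and for tuba2, with 589.6 CPM against 484 CPM. Low-dose replicate 4 stood above the other low-dose libraries for sncga, with 29.9 CPM against 3.76 CPM.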

How the results depend on the processing

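The count of members past the threshold was 0 in every comparison and under every alternative, by edgeR, DESeq2 and limma. Over all genes at the low dose, DESeq2 called 1 gene. At the high dose DESeq2 called 4 genes, limma with array quality weights 2, and edgeR without control replicates 2 and 3 called 1. Between the doses limma called 2 genes, and edgeR called 3 with low-dose replicate 4 and control replicates 2 and 3 left out; the other alternatives called 0 genes, and the causes were not tested. With 1 library left out, edgeR called 0 genes in each comparison. The member median was then -0.20 to -0.083 for the low dose and 0.05 to 0.19 for the high dose. The axon growth minus vesicle median was -0.53 to -0.24 for the low dose and -0.22 to 0.067 for the high dose. By DESeq2 3 members reached an unadjusted p under 0.05 at the low dose, 0 at the high dose and 4 between the doses, and by limma 1, 1 and 5.

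Replicate numbers are shared between groups, but same-numbered libraries did not deviate together in every pair: correlations of their deviations were -0.05 to 0.26 for low-dose libraries and -0.26 to 0.25 for high-dose libraries, and 3 of 7 treated libraries correlated best with the control of their own number. Fits with a replicate block kept only the replicate numbers present in every group fitted. They left out control replicate 5 at the low dose and control replicates 4 and 5 at the high dose. Between the doses they left out low-dose replicate 4 and control replicates 4 and 5. Their values therefore differ from the full fits in libraries as well as in the block. With a replicate block 0 genes and 0 members were called. The block gave 5 members at an unadjusted p under 0.05 at the low dose, 1 at the high dose and 2 between the doses, member medians of -0.13 and 0.049, and axon growth minus vesicle medians of -0.47 and -0.13 at the low and high dose. At this spread, the median gene had a standard error of 0.33 (log2) at each dose, which limits what could be detected.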
